A study of Mus musculus with 22 samples.

Results

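The ganglion cell genes described here were 10 genes chosen by name, 8 transcription factors (Pou4f1, Pou4f2, Pou4f3, Isl1, Isl2, Ebf1, Ebf2 and Ebf3) and 2 other markers of retinal ganglion cells (Rbpms and Gap43). The members were every H3K27me3 peak that the deposited annotation assigned to these genes, 23 of the 19034 peaks in the table. Of these, 20 peaks passed the filter on low counts, as did 16307 peaks of the whole table. Summed over its peaks, each of the 10 genes passed the filter, as did 11324 of 12370 genes. The members held between 0.644% and 0.75% of the reads in peaks of an animal.

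Retinal ganglion cells are the first neurons born in the retina, and their axons form the optic nerve. The POU4F factors (Brn3a, Brn3b and Brn3c) and ISL1 act downstream of the proneural factor ATOH7 and specify ganglion cell identity, survival and axon growth. H3K27me3 is deposited by Polycomb repressive complex 2 (PRC2) and forms broad domains over the start sites of developmental regulators in cells in which these genes are not transcribed. JARID2 is an accessory subunit of PRC2 that takes part in its recruitment to chromatin. Ganglion cells are a minority of the cells of a mouse retina before birth, so a whole-retina profile of these loci comes mainly from other cells.

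H3K27me3 was mapped by CUT&RUN, in which a nuclease tethered to an antibody cuts out the DNA beside marked nucleosomes, in retinas of C57BL/6 mice at embryonic day 18.5. The 5 cKO animals were Jarid2 fl/fl with Rx-cre. Of the 5 controls, replicate 1 was Jarid2 fl/+ with Rx-cre, replicates 2, 4 and 5 were Jarid2 fl/+ without Cre and replicate 3 was Jarid2 fl/fl without Cre. The protocol text instead gives the controls as Jarid2 fl/fl and the Cre as Rax-CreERT2, a tamoxifen-dependent form, and the labels of the samples were used here. Pregnant females received 75 µg of tamoxifen per g of body weight at E10.5, so cKO and control embryos were both exposed to it. Rx (Rax) is expressed in early retinal progenitors, and how many cells had lost Jarid2 was not measured in the files used here. Both retinas of an animal were pooled. Batch 1 held 2 cKO animals (replicate 1 female, replicate 2 male) and 2 controls (replicate 1 male, replicate 2 female) of 1 litter. Batch 2 held 3 cKO and 3 control littermates, all male, each with 2 technical duplicates that were summed. Batch, litter and the mix of sexes cannot be told apart.

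Each animal gave between 1688368 and 2864080 reads in peaks. Levels are given as CPM, the count of an animal scaled to a common depth of reads in peaks with TMM factors, which balance the bulk of the features between libraries, and per kb of peak where loci are compared. A level is an average over all cells of the retina, so fewer marked cells and less of the mark per cell cannot be told apart. As a check of the tissue, the eye field genes Rax, Six3, Six6 and Sox2, which retinal cells transcribe, had no assigned peak among those analysed here, and Pax6 held 4.52 CPM per kb in controls. The 6 non-neural regulators looked at (Myod1, Gata4, Tbx5, Hnf4a, Pax1 and Foxa2) had a median of 23.4 CPM per kb in controls, but Hnf4a among them held 2.99 CPM per kb, less than Pax6. Of markers of other cells, 2 genes of 4 for pigment epithelium were tested. Mitf, the pigment cell regulator, was lower in cKO at 153 ± 6.29 CPM, against 175 ± 4.68 CPM in controls (SD, n = 5 each; log2 fold change −0.19, adjusted p = 0.028, edgeR quasi-likelihood test), and Dct was not called (adjusted p = 0.159). The pigment epithelium genes summed to between 797 and 865 CPM in cKO animals and between 892 and 973 CPM in controls. For lens, endothelium and microglia, 2, 1 and 1 of 4 genes each were tested, none was called and none had an unadjusted p under 0.05 (edgeR). Their sums were between 1508 and 1775 CPM in cKO and between 1394 and 1929 CPM in controls for lens, between 4.45 and 8.79 CPM in cKO and between 5.47 and 7.30 CPM in controls for endothelium, and between 5.36 and 6.72 CPM in cKO and between 3.13 and 5.36 CPM in controls for microglia. The part of such cells in the results was not tested.

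Some of these domains start from DNA rich in CpG, the dinucleotide whose islands are the usual sites of Polycomb recruitment in vertebrates. RefSeq windows of 300 bases were taken from build GRCm38.p6, the assembly that mm10 represents. Each held 250 bases before and 50 after the annotated start. Windows of 6 of the 10 genes were examined, 7 windows in all, and all 7 lay inside a peak wider than 15 kb. No window was available for Ebf2, Rbpms and Gap43. Pou4f3 was left out of the comparison of windows, so its CpG content was not examined. The windows of 4 transcription factor genes are shown because their starts lie inside broad domains and because they differ widely in CpG content; they are written 5′ to 3′ on the strand of the gene, with each CG in capitals.
Pou4f1: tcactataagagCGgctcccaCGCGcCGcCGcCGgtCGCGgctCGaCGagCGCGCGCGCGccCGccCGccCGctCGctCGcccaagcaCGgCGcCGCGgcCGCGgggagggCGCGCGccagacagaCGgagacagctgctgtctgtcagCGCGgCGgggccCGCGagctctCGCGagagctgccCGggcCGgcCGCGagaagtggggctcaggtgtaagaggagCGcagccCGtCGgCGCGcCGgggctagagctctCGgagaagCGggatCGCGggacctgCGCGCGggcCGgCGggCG
Pou4f2: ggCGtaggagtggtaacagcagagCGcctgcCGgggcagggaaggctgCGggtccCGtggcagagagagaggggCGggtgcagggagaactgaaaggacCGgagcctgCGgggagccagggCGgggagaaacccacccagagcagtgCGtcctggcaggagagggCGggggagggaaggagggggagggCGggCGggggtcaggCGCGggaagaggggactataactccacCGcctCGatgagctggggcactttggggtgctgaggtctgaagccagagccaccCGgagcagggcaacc
Isl1: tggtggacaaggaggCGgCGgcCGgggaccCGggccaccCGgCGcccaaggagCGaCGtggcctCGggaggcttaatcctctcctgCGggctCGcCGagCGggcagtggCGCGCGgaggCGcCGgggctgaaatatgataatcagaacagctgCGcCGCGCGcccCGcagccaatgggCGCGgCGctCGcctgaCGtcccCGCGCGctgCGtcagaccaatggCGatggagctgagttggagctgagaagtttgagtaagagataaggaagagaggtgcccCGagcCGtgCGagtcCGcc
Ebf3: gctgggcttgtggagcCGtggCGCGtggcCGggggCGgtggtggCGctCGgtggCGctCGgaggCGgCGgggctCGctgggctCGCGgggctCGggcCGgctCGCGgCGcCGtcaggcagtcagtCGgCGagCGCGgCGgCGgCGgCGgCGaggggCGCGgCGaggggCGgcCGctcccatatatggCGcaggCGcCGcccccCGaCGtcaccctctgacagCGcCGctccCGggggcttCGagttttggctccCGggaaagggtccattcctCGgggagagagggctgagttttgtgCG
The Pou4f1 window, at chr14:104467950-104468249 on the minus strand, held 57 CG, at percentile 99.9 of 32851 RefSeq mouse promoter windows, with 78.3% G and C. The Ebf3 window, at chr7:137314396-137314695 on the minus strand, held 46, and the Isl1 window, at chr13:116309639-116309938 on the minus strand, held 37. The Pou4f2 window, at chr8:78436598-78436897 on the minus strand, held only 18. Isl2 held 23, and the 2 Ebf1 windows held 9 and 17. All promoter windows had a median of 7 CG, and the 922 windows over a peak wider than 15 kb had a median of 13. CpG content at the start therefore did not order these domains by their level: Pou4f2, with fewer CG than Ebf3, carried 31.5 CPM per kb over its domain in controls, against 21.8 CPM per kb for Ebf3. The letters CANNTG, the core of the site of proneural factors such as ATOH7, which read the same on both strands, were found at 2 places in the Pou4f1 window, at 1 in that of Isl1 and in neither the Pou4f2 nor the Ebf3 window. They occur in 72.3% of all promoter windows and in 64.8% of those over a peak wider than 15 kb.

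Each of the 8 transcription factor genes had its start inside a broad H3K27me3 domain in cKO and in control retinas. These domains were 17.1 to 43.9 kb wide. Among all peaks, tested or not, they lay at percentiles 96.6 to 99.7 of width and 96.3 to 99.98 of reads per kb. Isl1, which encodes the LIM-homeodomain factor that acts with POU4F2, was the densest at 45.4 ± 1.14 CPM per kb in cKO and 48.0 ± 5.23 CPM per kb in controls (SD, n = 5 each). Pou4f1 followed with 37.0 ± 1.25 CPM per kb in cKO and 39.1 ± 4.14 CPM per kb in controls, and then Pou4f2 with 30.6 ± 2.18 and 31.6 ± 3.19 CPM per kb in cKO and in controls. Ebf2, Isl2 and Pou4f3 came next, between 24.4 and 27.04 CPM per kb in cKO and between 24.8 and 28.4 CPM per kb in controls. Ebf1 and Ebf3, whose sums include weaker peaks in the gene, had 18.01 and 17.0 CPM per kb in cKO and 19.0 and 18.4 CPM per kb in controls. The 2 marker genes were lower, Rbpms at 9.77 ± 2.57 CPM per kb in cKO and 13.9 ± 2.62 in controls, and Gap43 at 6.29 ± 0.560 in cKO and 7.39 ± 0.866 in controls. The order of the 10 genes was the same in cKO and in controls. In controls each gene overlapped the next in the order in its range over animals, except that Pou4f3 stayed above Ebf1, Rbpms above Gap43, and Ebf3 above Rbpms. In cKO, Isl1 also stayed above Pou4f1 and Pou4f1 above Pou4f2.

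**Figure D1:**
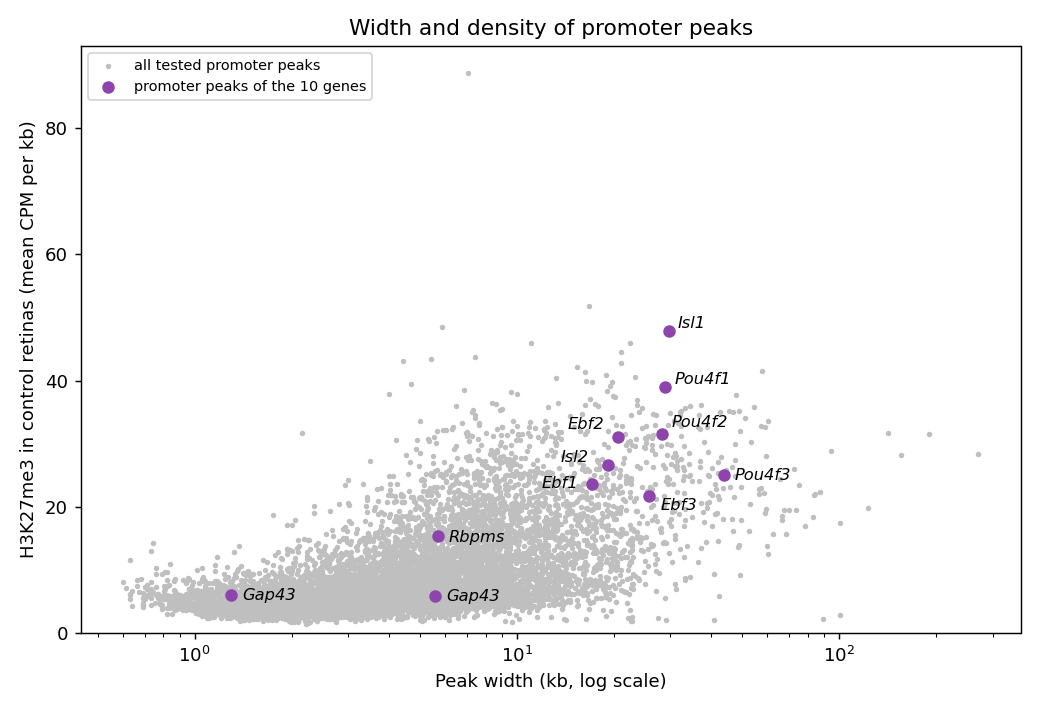
Width of each tested promoter peak (x axis, kb, log scale) against its mean H3K27me3 level in the 5 control retinas (y axis, CPM per kb), with the promoter peaks of the ganglion cell genes as large named points and all other tested promoter peaks in grey. The 8 transcription factor genes lie at 17.1 to 43.9 kb and 21.8 to 47.8 CPM per kb, whereas the promoter peak of Rbpms and the 2 of Gap43 lie among the bulk of the peaks.

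In the comparison of cKO with control retinas over both batches, 1 of the 10 genes passed an adjusted p of 0.05 in the edgeR quasi-likelihood test with Benjamini-Hochberg adjustment over all tested genes, Rbpms, which fell; over all genes 9.78% passed, 8.29% lower and 1.48% higher in cKO. Of the 20 tested peaks, 3 passed, all of them lower in cKO: the intron and promoter peaks of Rbpms and the distal peak assigned to Gap43. Over all peaks 8.84% passed, 7.38% lower and 1.46% higher. With counts scaled by the total alone, 68.9% of called peaks and 61.9% of called genes were lower, against 83.5% and 84.8% with TMM. All 10 genes had a log2 fold change below 0 with TMM scaling, against 46.8% of all genes, with a median of −0.08 for the 10 genes and of 0.02 for all genes (quartiles −0.12 and 0.14); with the total count as scaling, Pou4f2 and Pou4f3 were above 0. None of the 8 transcription factor genes passed, and none had an unadjusted p under 0.05, where 23% of all genes did; with DESeq2 and limma-voom none of these 8 passed either.

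**Figure D2:**
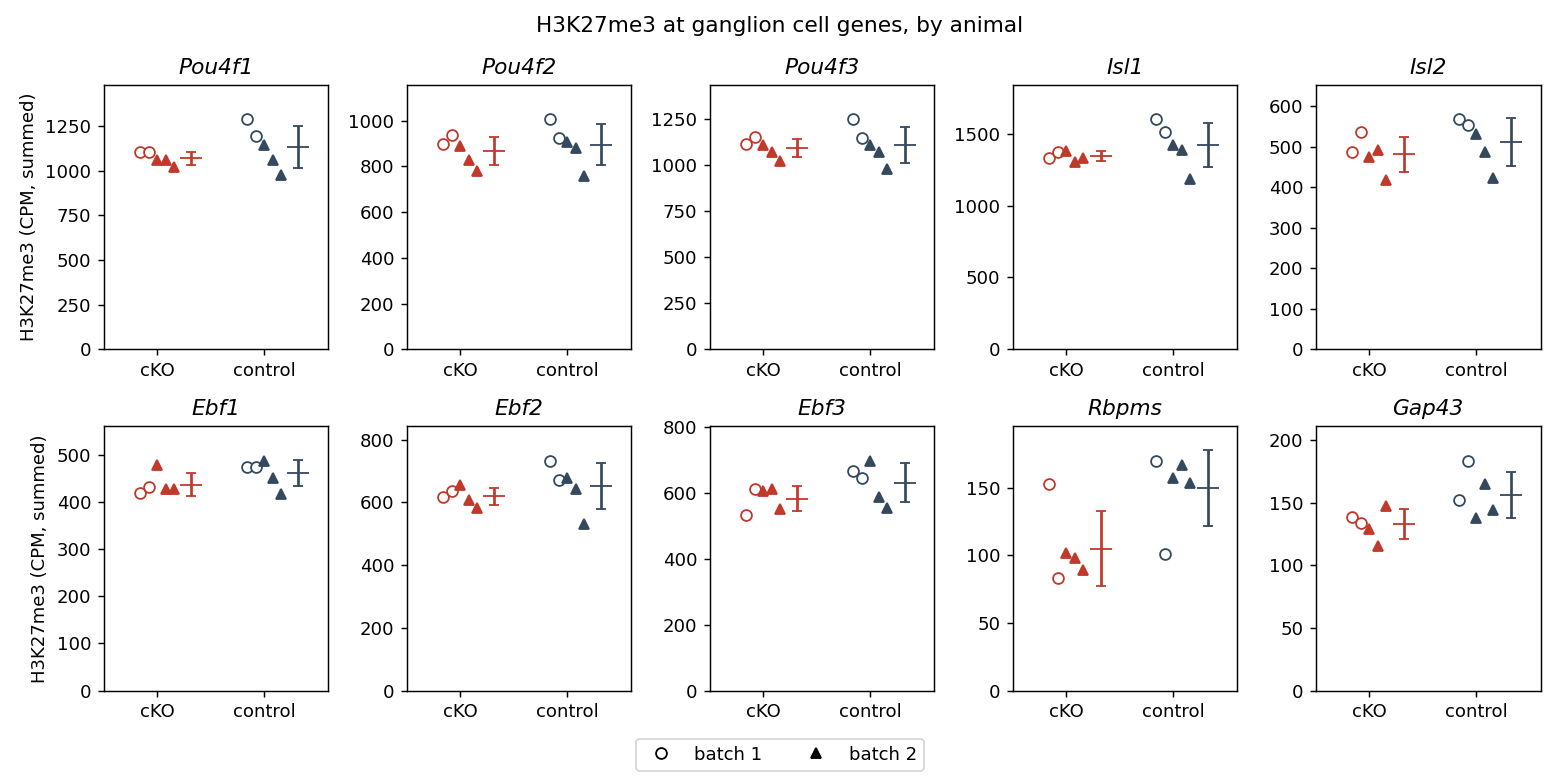
H3K27me3 summed over the peaks of each ganglion cell gene (y axes, CPM, starting at 0) in each animal, with cKO animals left and control animals right in each panel, circles for batch 1, triangles for batch 2, and the mean ± SD of 5 animals beside them. The groups overlap at the transcription factor genes, with a wider spread in controls, whereas at Rbpms 4 cKO animals lie between 82.9 and 102 CPM and 4 controls between 153 and 170 CPM, and 1 animal of each group lies among the other group.

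Pou4f1, also called Brn3a, encodes a factor of sensory neurons and ganglion cells and had 1 peak (chr14:104447780-104476740, mm10) of 28961 bp over the whole gene. It held 1106 and 1106 CPM in the batch 1 cKO retinas and 1063, 1063 and 1019 CPM in those of batch 2, against 1288 and 1195 CPM in the batch 1 controls and 1142, 1062 and 977 CPM in those of batch 2. Both batch 1 cKO animals were below both controls of that batch, and the groups overlapped in batch 2. Its log2 fold change, cKO over control, was −0.08 ± 0.06 (SE; 95% interval −0.22 to 0.06; adjusted p = 0.491, edgeR).

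Pou4f2, also called Brn3b, which ganglion cells need to differentiate, had 1 peak (chr8:78417830-78446140) of 28311 bp. Its levels were 898 and 935 CPM in the batch 1 cKO retinas and 888, 827 and 779.8 CPM in batch 2, against 1005 and 924 CPM in the batch 1 controls and 908, 879 and 757 CPM in batch 2. The groups overlapped in both batches, with a log2 fold change of −0.05 ± 0.06 (95% interval −0.19 to 0.10; adjusted p = 0.719, edgeR).

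Pou4f3, also called Brn3c, which acts in a subset of ganglion cells and in hair cells of the ear, had the widest domain of the 10 genes (chr18:42377980-42421860), 43881 bp, and a small peak (chr18:42348210-42349080) at −45.5 kb from the annotated start. The sums were 1112 and 1148 CPM in the batch 1 cKO retinas and 1109, 1067 and 1020 CPM in batch 2, against 1245 and 1144 CPM in the batch 1 controls and 1107, 1067 and 977 CPM in batch 2. The groups overlapped in both batches, and the difference was the smallest of the 10 genes (log2 fold change −0.02 ± 0.06, 95% interval −0.16 to 0.12, adjusted p = 0.882, edgeR). The small peak had 4.12 ± 1.43 CPM in cKO and 2.97 ± 1.18 CPM in controls, from 4 to 13 reads per animal, with an adjusted p of 0.38 (edgeR).

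Isl1 had 1 peak (chr13:116289900-116319490) of 29591 bp. The cKO animals held 1329 and 1373 CPM in batch 1 and 1382, 1300 and 1334 CPM in batch 2, and the controls held 1599 and 1510 CPM in batch 1 and 1421, 1385 and 1187 CPM in batch 2. Both batch 1 cKO animals were below both controls of the batch, whereas in batch 2 control replicate 5 was the lowest of all. The log2 fold change was −0.08 ± 0.06 (95% interval −0.23 to 0.08; adjusted p = 0.541, edgeR).

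Isl2, which marks ganglion cells whose axons cross the midline, had 1 peak (chr9:55533250-55552430) of 19181 bp, which also lies over part of the neighbouring gene Scaper. It held 487 and 537 CPM in the batch 1 cKO retinas and 474, 491 and 418 CPM in batch 2, against 568 and 554 CPM in the batch 1 controls and 531, 487 and 423 CPM in batch 2. The difference on the log2 scale was −0.09 ± 0.07 (95% interval −0.25 to 0.07; adjusted p = 0.483, edgeR), with the batch 1 groups apart and those of batch 2 overlapping.

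The controls differed among themselves at these genes. Control replicate 5 was the lowest control at all 8 transcription factor genes, and control replicate 1 was the highest at 6 of them. The share of reads in peaks that lay away from promoters was 24.8% in control replicate 5, the highest of the 10 animals, against 20.1% in control replicate 1, the lowest of the controls. The TMM factors of these animals were 1.07 and 0.936. In the cKO animals that share was between 20.0% and 22.7%. The order of the animals by this share was not that of their levels at every gene: Ebf1 was highest in control replicate 3, with a share of 22.4%, and in cKO Isl1 and Ebf1 were highest in replicate 3, with 21.5%. The relation between the share and the levels was not tested.

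Ebf1, Ebf2 and Ebf3 encode related helix-loop-helix factors of developing neurons, including ganglion cells, and each had a broad promoter domain and weaker peaks further into the gene. Ebf1 had its promoter domain (chr11:44608660-44625750) with 389 ± 25.9 CPM in cKO and 403 ± 36.9 CPM in controls, which made up 88.2% of the reads of its 4 peaks. Summed, the cKO animals held 419 and 431 CPM in batch 1 and 478, 428 and 428 CPM in batch 2, and the controls held 474 and 475 CPM in batch 1 and 488, 451 and 418 CPM in batch 2. The batch 1 groups were apart and the batch 2 groups overlapped (log2 fold change −0.08 ± 0.06, 95% interval −0.22 to 0.06, adjusted p = 0.490, edgeR). Its stronger intron peak (chr11:44830630-44834700) stood at −0.17 ± 0.09 on the log2 scale (adjusted p = 0.279, edgeR).

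Ebf2 had a promoter domain (chr14:67223440-67244060) of 20621 bp with 98.8% of its reads. Summed, it held 618 and 636 CPM in the batch 1 cKO retinas and 655, 607 and 583 CPM in batch 2, against 733 and 672 CPM in the batch 1 controls and 678, 644 and 532 CPM in batch 2. The log2 fold change was −0.07 ± 0.07 (95% interval −0.23 to 0.09; adjusted p = 0.598, edgeR), again with the batch 1 groups apart and those of batch 2 overlapping. An exon peak of Ebf2 (chr14:67246450-67247700) had each cKO animal above each control within both batches, at 5.03 ± 0.585 CPM in cKO and 3.99 ± 0.210 CPM in controls. It rested on 6 to 12 reads per animal, and its adjusted p was 0.589 (edgeR, log2 fold change 0.31 ± 0.22).

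Ebf3 had a promoter domain (chr7:137303050-137328860) of 25811 bp with 531 ± 39.5 CPM in cKO and 562 ± 67.0 CPM in controls, an exon peak (chr7:137296690-137301570) and an intron peak (chr7:137254710-137258260). Summed, it held 532 and 613 CPM in the batch 1 cKO retinas and 606, 612 and 552 CPM in batch 2, against 668 and 648 CPM in the batch 1 controls and 699, 589 and 554 CPM in batch 2. All 5 cKO animals were below the control mean of their batch, but the batch 2 groups overlapped and the difference did not pass (log2 fold change −0.11 ± 0.07, 95% interval −0.28 to 0.05, adjusted p = 0.352, edgeR). Within the gene the values were further below 0 away from the promoter, a difference between peaks that was not tested. The promoter domain had a log2 fold change of −0.08 ± 0.08, the exon peak of −0.29 ± 0.14 (adjusted p = 0.218) and the intron peak of −0.30 ± 0.10 (adjusted p = 0.0642, edgeR). The intron peak held 24.3 and 25.9 CPM in the batch 1 cKO retinas and 47.1, 37.6 and 45.7 CPM in batch 2, against 31.1 and 37.4 CPM in the batch 1 controls and 52.4, 54.5 and 46.7 CPM in batch 2. It passed without cKO replicate 3 (adjusted p = 0.0469) and without control replicate 5 (adjusted p = 0.0366).

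The deposited annotation gives each peak to 1 gene, and 3 further peaks inside the RefSeq body of Ebf3 are assigned to the predicted genes Gm10578 and Gm45278. These were looked at after their values were seen. The wider Gm10578 peak (chr7:137236170-137245680) lies 75.0 kb from the centre of the Ebf3 promoter domain. It held 26.4 and 34.8 CPM in the batch 1 cKO retinas and 58.2, 50.0 and 53.2 CPM in batch 2, against 45.9 and 67.4 CPM in the batch 1 controls and 88.0, 84.8 and 79.1 CPM in batch 2. Within each batch every cKO animal was below every control. The peak fell by 0.71 ± 0.10 on the log2 scale (adjusted p = 7.87e-05, edgeR), with −0.88 in batch 1 and −0.65 in batch 2.

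The second Gm10578 peak (chr7:137248060-137252360) held 11.6 and 11.9 CPM in the batch 1 cKO retinas and 21.9, 16.8 and 21.9 CPM in batch 2, against 24.7 and 28.7 CPM in the batch 1 controls and 28.0, 29.96 and 33.7 CPM in batch 2. No cKO animal reached the lowest control, and the log2 fold change was −0.76 ± 0.13 (adjusted p = 0.000445, edgeR). Both peaks passed without each animal in turn, with adjusted p of at most 0.00300. The Gm45278 peak (chr7:137202580-137203320) stood at −0.65 on the log2 scale and did not pass (adjusted p = 0.143, edgeR). Here and below, RefSeq bodies were counted with 2.5 kb added on each side, and a peak could count for several genes. With all 6 peaks over the RefSeq body of Ebf3 counted, the gene fell with a log2 fold change of −0.20 and an adjusted p of 0.0146 (edgeR). In that fit 802 of 12250 tested genes were called lower and 152 higher. Counted over their RefSeq bodies, Ebf1 (−0.11, adjusted p = 0.156) and Ebf2 (−0.08, adjusted p = 0.373) did not pass (edgeR). In the same count, the 3 extra peaks in Ebf1, assigned to Gm12158, had log2 fold changes of −0.18, −0.24 and −0.36 and none passed (adjusted p 0.647, 0.243 and 0.117). The 2 extra peaks in Ebf2, assigned to Gm23178 and 4930438E09Rik, stood at −0.14 and 0.10 on the log2 scale and did not pass either (adjusted p 0.602 and 0.786).

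**Figure D3:**
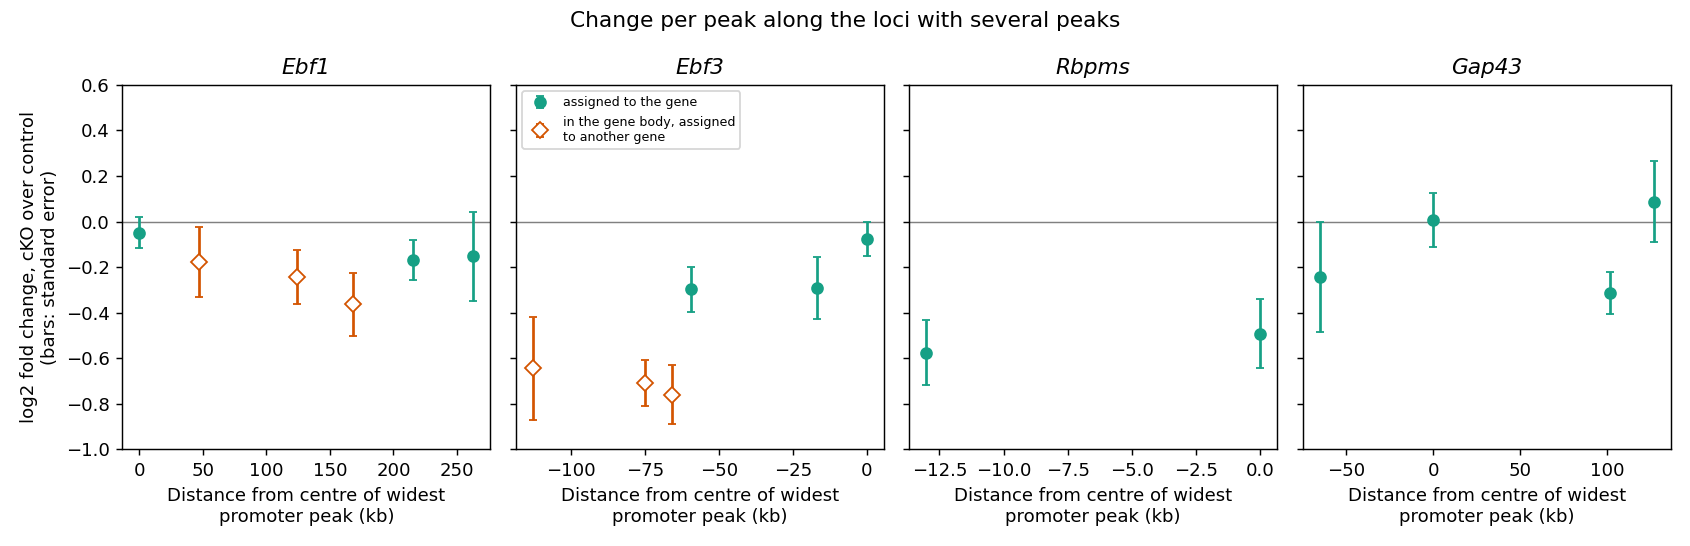
Log2 fold change of each tested peak, cKO over control (y axis, bars are standard errors), against its distance along the chromosome (x axis, kb). Distance is from the centre of the widest promoter peak of the gene, for Ebf1, Ebf3, Rbpms and Gap43. Ebf2 and Pou4f3, which also had tested peaks away from the promoter, are not drawn. Filled points are peaks assigned to the gene and open diamonds are peaks in its body that the annotation assigned to another gene; in Ebf3 the promoter lies near 0 and the 2 Gm10578 peaks at −0.71 and −0.76.

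Rbpms encodes an RNA-binding protein that marks nearly all ganglion cells in the mature retina, and H3K27me3 over it was 1.44-fold lower in cKO retinas. Summed over its 3 peaks, the cKO animals held 153 and 82.9 CPM in batch 1 and 102, 97.8 and 89.4 CPM in batch 2, and the controls held 169.9 and 100.7 CPM in batch 1 and 157, 167 and 153 CPM in batch 2. In batch 2 every cKO animal was below every control. In batch 1 the female cKO, replicate 1, lay among the controls, and the female control, replicate 2, lay among the cKO animals. The log2 fold change was −0.53 ± 0.14 (95% interval −0.87 to −0.20; adjusted p = 0.0203, edgeR), and 4 of 5 cKO animals were below the control mean of their batch. An exact two-sided permutation test that exchanged animals within batches gave p = 0.0500, with 0.0167 as the smallest p that its 120 arrangements allow. The call was lost without cKO replicate 3 (adjusted p = 0.0608), cKO replicate 4 (0.0654), cKO replicate 5 (0.0777), control replicate 3 (0.0561) or control replicate 4 (0.0722), with DESeq2 (adjusted p = 0.188) and with the second duplicate only (adjusted p = 0.0562).

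The 2 tested peaks of Rbpms differed in the same direction. The promoter peak (chr8:33926010-33931700) is 5.69 kb wide, at percentile 89.1 of reads per kb. It held 99.4 and 50.7 CPM in the batch 1 cKO retinas and 60.6, 57.5 and 49.0 CPM in batch 2, against 110.1 and 61.2 CPM in the batch 1 controls and 89.8, 94.2 and 81.3 CPM in batch 2. Its log2 fold change was −0.49 ± 0.15 (adjusted p = 0.0444, edgeR); among the fits without 1 animal it passed only without cKO replicate 1 (0.000522) or control replicate 2 (0.00150), the females, and when any of the other 8 animals was left out its adjusted p lay between 0.0658 and 0.135. The exact permutation test within batches gave p = 0.117 for this peak, and without the filter on low counts its adjusted p was 0.0590.

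The intron peak of Rbpms (chr8:33913710-33917960) lies 11.3 kb from an annotated start of the gene. It held 53.9 and 32.8 CPM in the batch 1 cKO retinas and 38.3, 35.4 and 35.0 CPM in batch 2, against 58.3 and 34.3 CPM in the batch 1 controls and 61.0, 66.9 and 65.6 CPM in batch 2. The batch 2 groups were far apart and those of batch 1 overlapped. This was a log2 fold change of −0.58 ± 0.14 (adjusted p = 0.0123, edgeR), and the call was lost without cKO replicate 4 (0.0559) or control replicate 4 (0.0524) and with the first (0.0674) or second (0.0672) duplicate only. The exact permutation test within batches gave p = 0.0333 for it. This value was not particular to called peaks. The exact permutation test also gave p = 0.0333 for the uncalled Ebf3 intron peak and the stronger Ebf1 intron peak, also uncalled. For the uncalled Ebf2 exon peak, higher in cKO, the exact permutation test within batches gave p = 0.0167, the smallest it allows. The female animals did not stand among the other group at every called locus: at both Gm10578 peaks in Ebf3, cKO replicate 1 was below and control replicate 2 above every animal of the other group in batch 1.

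Gap43 encodes a protein of growing axons, and its promoter peak carried an ordinary level of the mark, at percentile 60.1 of reads per kb. That peak (chr16:42337350-42342930) had 32.5 ± 5.27 CPM in cKO and 33.0 ± 4.74 CPM in controls, a log2 fold change of 0.01 ± 0.12 (95% interval −0.27 to 0.29; adjusted p = 0.987, edgeR). Most reads assigned to Gap43, 66.6%, came from a distal peak (chr16:42435600-42447730) at −94.95 kb from the start, in a stretch with no RefSeq gene. That peak held 103 and 92.5 CPM in the batch 1 cKO retinas and 75.4, 67.6 and 93.3 CPM in batch 2, against 108 and 122 CPM in the batch 1 controls and 96.6, 119 and 88.1 CPM in batch 2. All 5 cKO animals were below the control mean of their batch, with the batch 1 groups apart and those of batch 2 overlapping. The peak fell by 0.31 ± 0.09 on the log2 scale (adjusted p = 0.0373, edgeR). The call was lost without cKO replicate 2 (0.0793), cKO replicate 3 (0.103), cKO replicate 4 (0.132), control replicate 2 (0.0721), control replicate 3 (0.0590) or control replicate 4 (0.150), and with DESeq2 (adjusted p = 0.0551). The exact permutation test within batches gave p = 0.0500 for this peak.

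Summed over its 4 peaks, Gap43 held 139 and 134 CPM in the batch 1 cKO retinas and 129.5, 116 and 148 CPM in batch 2, against 152 and 184 CPM in the batch 1 controls and 138, 165 and 144 CPM in batch 2. The difference missed the threshold, with a log2 fold change of −0.23 ± 0.08 (95% interval −0.41 to −0.05; adjusted p = 0.0680, edgeR), while an exact permutation test within batches gave p = 0.0500. It passed without cKO replicate 5 (0.0273), control replicate 1 (0.0373) or control replicate 3 (0.0493), with sex as a further term (0.0397), without the filter on low counts (0.0473) and with the second duplicate only (0.0497). With only the 2 peaks over the RefSeq body of Gap43, which leaves out the distal peak, the log2 fold change was −0.07 (adjusted p = 0.791, edgeR).

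The broad promoter domains of the 8 transcription factor genes, with log2 fold changes between −0.08 and −0.01, were set beside peaks of the same kind. The 687 tested promoter peaks wider than 15 kb had a median of −0.0158 and quartiles of −0.0672 and 0.0434. Of the 8 domains, only that of Pou4f3 (−0.00843) lay above this median. Those of Isl2 (−0.0746) and Ebf3 (−0.0782) lay below the lower quartile. Of those 687 peaks, 9.17% were called lower and 1.02% higher in cKO. The 9 tested peaks of the 10 genes that lay away from promoters had a median of −0.17, against 0.01 for all tested peaks away from promoters and −0.04 for all tested intron and exon peaks. Calls in the lower direction made up 4.25% of tested promoter peaks, 14.5% of tested intron and exon peaks and 9.51% of tested distal intergenic peaks.

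Within batches, all 10 genes had a log2 fold change below 0 in batch 1 and 9 did in batch 2, against 48.5% and 47.1% of all genes. In batch 1 the cKO animals were both below both controls at 7 genes (Pou4f1, Isl1, Isl2, Ebf1, Ebf2, Ebf3 and Gap43), as at 27.7% of all genes, in a design of 2 animals against 2. Of these genes, control replicate 1, a batch 1 animal, was the highest control at Pou4f1, Isl1, Isl2 and Ebf2, but not at Ebf1, Ebf3 or Gap43. It was also the highest control at Pou4f2 and Pou4f3, where the batch 1 groups overlapped. The unadjusted p in batch 1 alone was 0.0144 for Isl1, 0.0418 for Pou4f1 and 0.0467 for Gap43 (edgeR quasi-likelihood test), and no gene of the table passed after adjustment, where 13.9% had an unadjusted p under 0.05. In batch 2 the groups were apart with cKO lower at Rbpms alone among the 10 genes, as at 12% of all genes. Rbpms also passed in batch 2 alone (log2 fold change −0.73, adjusted p = 1.52e-08, edgeR), where 6.23% of all genes were called lower, and had −0.19 in batch 1 (adjusted p = 0.822).

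The test of the difference between batches did not single out a gene of the 10. The lowest unadjusted p was 0.0870, for Rbpms (adjusted p = 0.999), in a test that called 0.0177% of all genes and 0.0123% of all peaks. Among the peaks, the Rbpms intron peak had −0.11 in batch 1 and −0.84 in batch 2, with an unadjusted p of 0.0157 for the difference. The Gap43 promoter peak had −0.33 in batch 1 and 0.17 in batch 2, with an unadjusted p of 0.0384 for the difference, and no member peak passed after adjustment (edgeR).

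**Figure D4:**
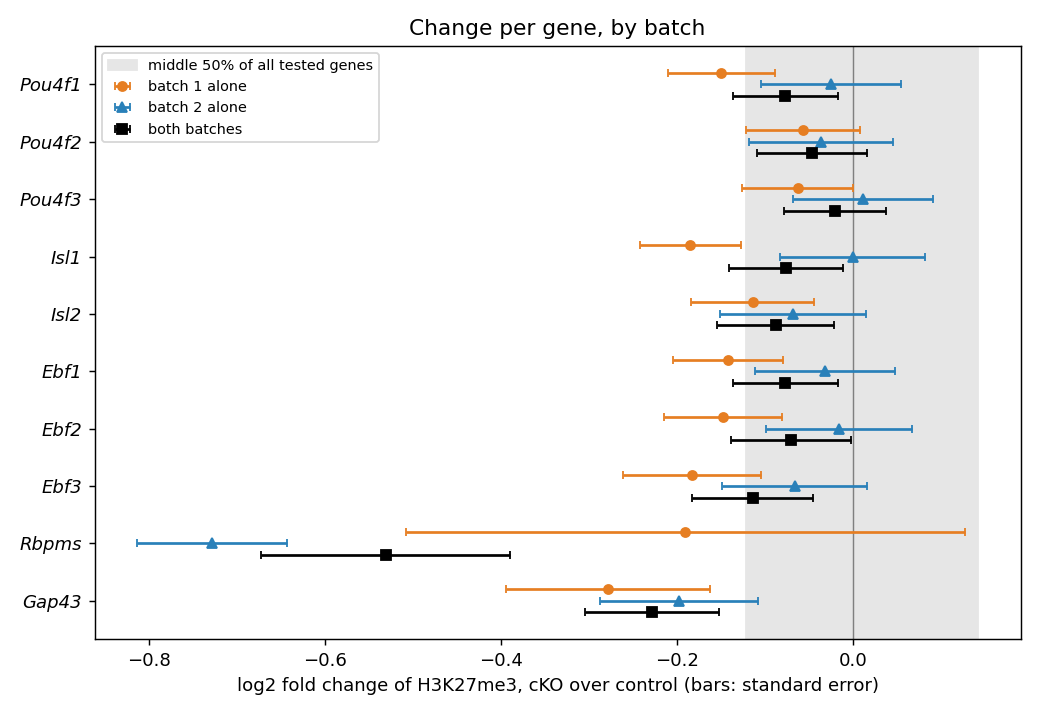
Log2 fold change of H3K27me3 summed per gene, cKO over control (x axis, bars are standard errors), in batch 1 alone (circles, 2 animals against 2), in batch 2 alone (triangles, 3 against 3) and in the fit of both batches (squares); the grey band holds the middle 50% of all tested genes. The transcription factor genes lie further below 0 in batch 1 than in batch 2, whereas Rbpms lies at −0.73 in batch 2 and at −0.19 in batch 1 with a wide error.

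Other genes of the ganglion cell programme were taken from lists drawn up from textbook knowledge, with earlier results of these data known. Of 30 other regulators, 26 had a peak and were tested, 4 passed, all lower in cKO, and 20 had a log2 fold change below 0, with a median of −0.09 against 0.02 for all genes; over all genes 8.29% were called lower and 46.8% were below 0. Atoh7, the proneural factor that makes progenitors competent to form ganglion cells, fell the most among these. It held 60.0 and 60.9 CPM in the batch 1 cKO retinas and 127, 119 and 128 CPM in batch 2, against 103 and 143 CPM in the batch 1 controls and 202, 208 and 175 CPM in batch 2. The groups were apart in each batch, with a log2 fold change of −0.77 ± 0.09 (adjusted p = 2.65e-05, edgeR). Eya2, a transcriptional coactivator and phosphatase, fell to 113 ± 23.5 CPM in cKO, against 140.3 ± 19.7 CPM in controls (log2 fold change −0.31 ± 0.08, adjusted p = 0.0148), and without control replicate 3 its adjusted p was 0.0519. Lhx2, an eye field and progenitor factor, had 104 ± 5.15 CPM in cKO and 126 ± 16.8 CPM in controls (log2 fold change −0.26 ± 0.07, adjusted p = 0.0202), and the call was lost without cKO replicate 1 (0.0730), cKO replicate 2 (0.0661), cKO replicate 5 (0.0563), control replicate 2 (0.0572) or control replicate 4 (0.0614). Satb1, a chromatin organiser, had 193 ± 5.68 CPM in cKO and 219 ± 9.98 CPM in controls, with no overlap between the groups (log2 fold change −0.18 ± 0.05, adjusted p = 0.0416). That call was lost without cKO replicate 1 (0.0947), cKO replicate 2 (0.103), cKO replicate 3 (0.0734), cKO replicate 4 (0.0630), cKO replicate 5 (0.110), control replicate 2 (0.123), control replicate 3 (0.0732) or control replicate 4 (0.1198).

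Of 36 other markers and effector genes of ganglion cells, 31 were tested, 2 passed, both lower in cKO, and 17 had a log2 fold change below 0, with a median of −0.04. These counts lie near the 8.29% called lower and the 46.8% below 0 over all genes. Chrna3, a nicotinic acetylcholine receptor subunit, had 6.72 and 9.75 CPM in the batch 1 cKO retinas and 13.5, 16.5 and 14.7 CPM in batch 2, against 12.7 and 13.8 CPM in the batch 1 controls and 24.2, 23.1 and 22.0 CPM in batch 2. The groups were apart in each batch (log2 fold change −0.65 ± 0.13, adjusted p = 0.00213, edgeR), on 13 to 67 reads per animal. Elavl4, a neuronal RNA-binding protein, had 41.0 ± 13.5 CPM in cKO and 54.9 ± 15.4 CPM in controls (log2 fold change −0.41 ± 0.12, adjusted p = 0.0276, edgeR). The Elavl4 call was lost without cKO replicate 1 (0.0552), cKO replicate 3 (0.0558), cKO replicate 5 (0.0706) or control replicate 5 (0.0590).

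The gene whose profile over the 10 animals was most like that of Rbpms was the predicted gene Gm45627, with a root mean square difference of 0.10 between the log2 CPM profiles centred within batches. Its peaks (chr8:34687680-34691580 and chr8:34730020-34734340) lie on the same chromosome as the Rbpms promoter peak (chr8:33926010-33931700). The log2 fold change of Gm45627 was −0.51 (adjusted p = 0.0422, edgeR). Whether both loci share a change was not tested. The next most alike were Olfr223, an olfactory receptor gene, with a difference of 0.20 (adjusted p = 0.0934), and the predicted gene Gm48541, with 0.22 (adjusted p = 0.416).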

How the data were processed

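The deposited table holds counts per peak, made by the authors, for 16 H3K27me3 libraries and 19034 peaks in mm10; 6 IgG libraries were not analysed here. Tools named in the submitters' processing notes are MACS2, Novoalign (4.02.02), DESeq2 (1.38.1) and SAMtools. Their settings, the handling of duplicate reads and whether peaks were called per sample or on pooled samples were not given in the sources used here. Peaks called on few libraries could miss sites of the other group. The authors' own test columns were not used.

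In 6 pairs of technical duplicates the chi-square of the counts was 0.879 to 0.996 times its degrees of freedom, within sampling noise, against 1.05 to 2.57 times in 8 pairs of different animals. Duplicates were therefore summed, giving 10 animals. Peaks, and sums per gene over assigned peaks, were filtered with filterByExpr, scaled with TMM and tested with edgeR 4.0.16 (quasi-likelihood, batch as a term, R 4.3.3) with Benjamini-Hochberg adjustment over all peaks or genes, calling at 0.05. Peaks and sums were scaled separately, so a gene with 1 peak differs slightly between them. Each batch and the batch by genotype term were also fitted. Standard errors are the log2 fold change divided by the root of F, and 95% intervals use 7 residual degrees of freedom, so they are approximate. Profiles used log2 CPM with a prior count of 2. The script was tested on simulated data.

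Animals with the same replicate number did not deviate together (r −0.46 in batch 1 and 0.11, 0.03 and 0.04 in batch 2, over 11324 genes), so numbers do not pair animals. DESeq2 1.42.0, limma-voom (limma 3.58.1), other scalings, filters, covariates, duplicates, thresholds and gene assignments, and leaving out each animal, were tried. The members and the gene lists were chosen with earlier results of these data known. Named genes were all members, every called gene of each list up to 4 per direction by p, and the 3 genes most like each called member; the peaks assigned to other genes inside Ebf1 and Ebf3, and Mitf, were named after their values were seen. Sequences came from RefSeq (GRCm38.p6). Plots used Python 3.11.15 and matplotlib 3.10.9.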

Additional observations from a re-analysis of the deposited data

Results flagged for a closer look

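Each level below stood apart from the other 4 animals of its group by a gap larger than Dixon's 95% critical value. This held in 6 of 60 groups examined. The groups are gene sums and the peaks within them, so they share reads, and each holds animals of both batches. The rate of about 1 group in 20 by chance alone therefore cannot be set directly against this count. Summed over its peaks, Rbpms held 152.5 CPM in cKO replicate 1, against 82.9 to 102 CPM in the other cKO animals, and 100.7 CPM in control replicate 2, against 153 to 170 CPM in the other controls. At the Rbpms intron peak, cKO replicate 1 held 53.93 CPM, against 32.8 to 38.3 CPM in the other cKO animals, and control replicate 2 held 34.32 CPM, against 58.3 to 66.9 CPM in the other controls. At the Rbpms promoter peak, cKO replicate 1 held 99.41 CPM, against 49.0 to 60.6 CPM in the other cKO animals. Both are the females of batch 1. Summed over its peaks, Ebf1 held 478.4 CPM in cKO replicate 3, against 419 to 431 CPM in the other cKO animals.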

How the results depend on the processing

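The 1 called member gene became 0 with DESeq2, without a batch term, in batch 1 alone and at an adjusted p of 0.01, and 2 without a filter, with sex as a term, with RefSeq gene bodies and at an adjusted p of 0.1; leaving out 1 animal gave 0 to 2. With the second duplicate only it stayed 1, but Rbpms was lost (adjusted p = 0.0562) and Gap43 passed (0.0497); Gap43 was also the second gene called without a filter (0.0473) and with sex as a term (0.0397). The 3 called member peaks became 1 with the total count, with DESeq2 and with the second duplicate only, and 0 without a batch term, with the first duplicate only, in batch 1 alone and at an adjusted p of 0.01; leaving out 1 animal gave 0 to 3. Over the table, the 1442 called peaks became 876 with DESeq2, 359 without a batch term, 935 with the first duplicate only, 46 in batch 1 alone and 839 at an adjusted p of 0.01, and 1091 to 1665 without 1 animal. The 1107 called genes became 736 with DESeq2, 271 without a batch term, 0 in batch 1 alone (1569 at an unadjusted p under 0.05), 624 at an adjusted p of 0.01 and 460 with promoter peaks only, and 836 to 1263 without 1 animal. Calls for a difference between batches, 2 peaks and 2 genes, became 0 to 9 of either without 1 animal. Without a batch term the Rbpms, Gap43, Atoh7, Eya2, Lhx2, Satb1, Chrna3 and Elavl4 calls were all lost, as was that of the wider Gm10578 peak (adjusted p = 0.0730), but not that of the second. With the total count the Rbpms promoter peak (0.0709), the Gap43 distal peak (0.0800), Satb1 (0.119), Lhx2 (0.0518) and Elavl4 (0.0574) missed the threshold, and with DESeq2 so did Satb1 (0.117), Lhx2 (0.0570) and the Rbpms promoter peak (0.301). The cause of these moves was not tested. The settings that leave out animals or duplicates also rest on fewer animals or fewer reads.

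With the replicate number as a block, the replicate block fit, 1 member gene and 2 member peaks were called, Rbpms stood at −0.53 on the log2 scale (adjusted p = 0.00105, edgeR) and the Gap43 distal peak missed the threshold (adjusted p = 0.0680); same-numbered animals share only a number. Crossing the numbers in batch 1, which puts animals of the same sex together, gave r = 0.46. With 2 animals a group this is the same-number value with its sign turned, so it is not a separate result. Sex as a term, the fit that takes in the sexes, called 2 member genes and 3 member peaks.

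Signs turned for values that were near 0 in the fit of both batches, though some turned values were not. With the total count, Pou4f2 (gene 0.0122, peak 0.0121) and Pou4f3 (gene 0.0384, domain 0.0369) were above 0. Pou4f3 was also above 0 with the second duplicate only (gene 0.00544, domain 0.0170) and in batch 2 alone (gene 0.0115, domain 0.0115), with leave-one-out ranges of −0.0525 to 0.0134 (gene) and −0.0525 to 0.0218 (domain). The Gap43 promoter peak was below 0 with DESeq2 size factors in edgeR (−0.00123), no filter (−0.000434), DESeq2 (−0.0126), no batch term (−0.00248), the replicate block (−0.00308), the first (−0.0341) or second (−0.0563) duplicate only and batch 1 alone (−0.332), with a leave-one-out range of −0.0723 to 0.108. The Gap43 peak at −125 kb from the start was below 0 with the first duplicate only (−0.0721) and in batch 1 alone (−0.189), with a leave-one-out range of −0.0140 to 0.167. The Ebf1 promoter peak was at 0.00267 with the first duplicate only, and the Isl1 peak at 0.00126 in batch 2 alone.

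Depth limits the small peaks: those of Ebf2 and Pou4f3 away from the promoter rest on 4 to 13 reads per animal. The intervals give the uncertainty of the log2 fold change between groups of 5 animals, not the range of single animals. Differences inside the intervals given for the transcription factor genes could not be told from 0.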
